A study of Eragrostis tef with 16 samples.

Results

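The genes described here are those whose response to low Ca2+ differed between shoots and roots of tef (Eragrostis tef), a tetraploid cereal grown for its grain in East Africa. They were found by testing, for each gene, whether the log2 fold change between low Ca2+ and control shoots differed from that between low Ca2+ and control roots. This difference of differences is called the interaction below, and it is positive where the response in shoots lay above that in roots. Of 68255 genes in the count table, 56746 were tested and 3351 passed at an adjusted p below 0.05 (edgeR's quasi-likelihood test with Benjamini-Hochberg adjustment), which is 5.91% of the genes tested. The interaction was positive for 2948 of them (5.20% of the genes tested) and negative for 403 (0.710%).

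RNA was sequenced from low Ca2+ shoots (LCS, 0.01 mM Ca), control shoots (ConS, 1 mM Ca), low Ca2+ roots (LCR, 0.01 mM Ca) and control roots (ConR, 1 mM Ca), with 4 libraries in each group and 16 in all. All plants came from 1 accession chosen for its high seed Ca and were kept in the same aerated, modified Hoagland solution, in which ammonium nitrate took the place of calcium nitrate. The study describes its replicates as independent, but the sources used here do not say whether a root and a shoot library came from the same plant, and the libraries carry no shared replicate number that would pair them. Libraries are named by their S numbers, S5 to S8 in LCS, S13 to S16 in ConS, S1 to S4 in LCR and S9 to S12 in ConR. Total counts ran from 9959542 to 11720368 in LCS, from 14640539 to 15590039 in ConS, from 6276818 to 10166944 in LCR and from 11587068 to 17659238 in ConR. Normalized counts below are CPM values, a gene's reads over its library total as scaled by the TMM method and expressed on the usual per-1000000 basis.

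Ca2+ enters the plant through the root, moves to the shoot in the xylem and is hardly moved again from older leaves, so that young shoot tissue depends on a steady supply. Inside the cell, channels let Ca2+ into the cytosol, pumps and exchangers remove it, and sensor proteins with EF-hand motifs, among them the Ca2+-dependent protein kinases (CDPKs), pass the signal on. Carriers of metals or metal chelates, such as the NRAMP, yellow stripe-like and oligopeptide transporter families, act beside them in mineral uptake and distribution. The libraries were made from root and shoot tissue ground in bulk, in which fewer cells of a type and less RNA per cell cannot be told apart.

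Most genes with a positive interaction were raised by low Ca2+ in shoots and were not called in roots. This pattern held for 2658 of the 2948 genes (90.2%), and over all genes tested 16.7% were raised in LCS vs ConS and 3.23% were called in either direction in LCR vs ConR. Their median level in LCS was 6.25 CPM and in ConS 0.602 CPM, against 6.16 CPM in LCR and 5.37 CPM in ConR. Their median log2 fold change was 3.18 in shoots and 0.15 in roots. Every LCS library was above every ConS library in 2596 of the 2948 genes (88.1%), beside 13.4% of all genes tested. The 2948 genes were selected with these same libraries, so this share and the 90.2% above follow in part from the selection. A further 58 genes were raised in both tissues, at a median of 3.71 in shoots and 1.33 in roots on the log2 scale. The count of 3351 became 5127 when LCS S7 was left out and 2417 when LCS S8 was, and stayed within 1.5 times for each library but LCS S7.

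Opposite calls in the pair of tissues were made for a small set. Here 60 genes were raised in shoots and lowered in roots, with median log2 fold changes of 1.79 in shoots and -1.57 in roots. Of the 60, 55 were higher in ConR than in ConS, beside 28.7% of all genes tested. The control libraries also enter both tissue calls, so this share is a description. A further 13 were lowered in shoots and raised in roots, with medians of -0.97 in shoots and 1.38 in roots. Over all genes tested, 1.90% were raised and 1.33% lowered in LCR vs ConR, and 9.04% were lowered in LCS vs ConS. All 60 and all 13 kept a called interaction of the same sign with any 1 library left out. The calls within each tissue held less well. With LCR S1, S2, S3 or S4 left out the count of 60 was 25, 20, 35 or 20, and with ConR S9, S10, S11 or S12 left out it was 31, 35, 110 or 32. For the 13, leaving out LCS S7 or S8 gave 29 or 7 genes, and leaving out ConS S13 or S14 gave 7 or 8. Leaving out LCR S1, S2 or S4 gave 5, 4 or 4 genes, and leaving out ConR S9, S10, S11 or S12 gave 3, 4, 23 or 6.

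A fall in roots alone was called for a further set. Low Ca2+ lowered 104 genes in roots while no change was called in shoots, with a median of 5.93 CPM in LCR and 17.6 CPM in ConR, against 2.699 CPM in LCS and 2.32 CPM in ConS. Over all 2948 genes of positive interaction, every LCR library was below every ConR library in 325 (11%), beside 7.17% of all genes tested. All LCR libraries lay above all ConR libraries in 378 of the 2948 genes (12.8%), beside 8.21%. The genes were selected with these same libraries, so both shares are a description. For 68 genes of positive interaction neither tissue response was called, with a median log2 fold change of 0.73 in shoots and -0.87 in roots.

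The 403 genes of negative interaction were divided more evenly between the tissues. In 213 (52.9%) the shoot response was a fall with no call in roots, at a median log2 fold change of -1.04 in shoots and 0.52 in roots. In 109 (27.0%) the gene rose in roots with no call in shoots, at a median of -0.20 in shoots and 1.38 in roots. In 164 of the 403 genes every LCS library was below every ConS library, beside 9.26% of all genes tested, and in 241 all LCR libraries lay above all ConR libraries, beside 8.21%. Neither response was called for 64 genes, 2 genes were lowered in both tissues and 2 were raised in both. Root calls were made for 126 of the 403 genes (31.3%) and for 222 of the 2948 genes of positive interaction (7.53%), beside 3.23% of all genes tested. Both sets were selected with these same libraries, so these shares and the counts without overlap follow in part from the selection. The median interaction was -1.64 for the negative and 2.92 for the positive genes, beside 0.08 for all genes tested. A group of libraries held no read at all for 110 positive and 9 negative genes, beside 5880 of the 56746 genes tested. With such groups set to a floor of 3 reads per group, the medians were 2.86 for the positive and -1.64 for the negative genes. The number of negative genes was the less stable of the pair. Leaving out LCS S7 or S8 gave 923 or 250 genes, and leaving out ConS S13 or S16 gave 258 or 610. Leaving out LCR S1, S2 or S4 gave 266, 221 or 203, and leaving out ConR S9 gave 246. Without each library in turn, 1869 of the 2948 positive and 142 of the 403 negative genes were called every time. By pattern these were 1702 of the 2658 genes raised in shoots only, 57 of the 104 lowered in roots only, 41 of the 58 raised in both and 9 of the 68 positive genes with no call in either tissue. Among the negative genes they were 56 of the 213 lowered in shoots only, 67 of the 109 raised in roots only and 5 of the 64 with no call in either tissue.

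**Figure D1:**
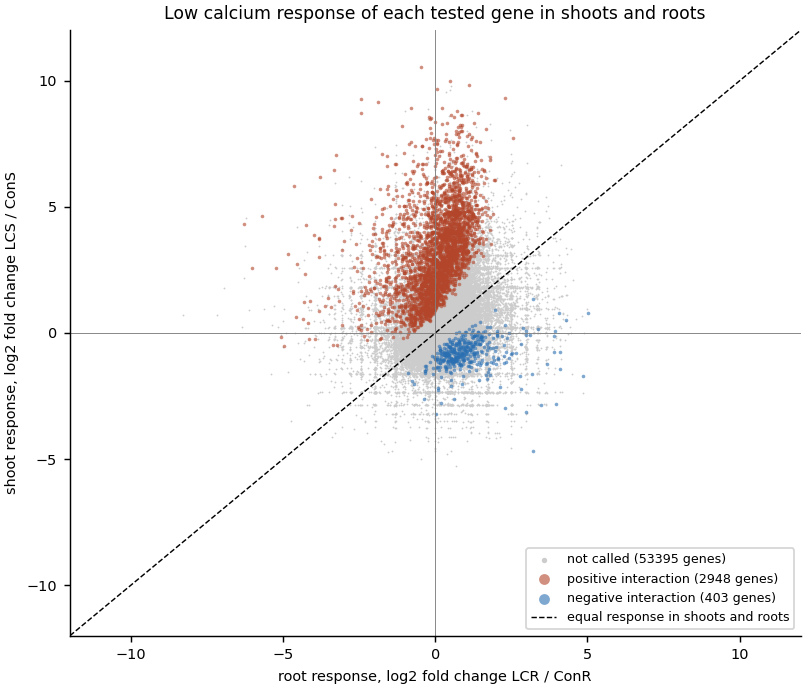
Each point is a gene tested, placed by its log2 fold change LCR / ConR in roots (x axis) and LCS / ConS in shoots (y axis). The 2948 genes of positive interaction (red) lie above the dashed line of equal response, most of them near 0 on the root axis, and the 403 of negative interaction (blue) lie below it.

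In control plants, genes of positive interaction were mostly root genes. Of the 2948, 2424 (82.2%) were higher in ConR than in ConS, 428 were called for neither tissue and 96 were higher in ConS. Among all genes tested, 52.4% differed between ConS and ConR, with 23.7% higher in ConS and 28.7% higher in ConR. The median log2 difference ConS minus ConR of the 2424 root-preferring genes was -3.49, and their median level was 0.600 CPM in ConS and 7.19 CPM in ConR. Under low Ca2+ the median difference LCS minus LCR was -0.51, with 5.42 CPM in LCS and 8.11 CPM in LCR. Root preference was called between LCS and LCR for 944 of them (38.9%), no preference for 1226 (50.6%) and shoot preference for 254 (10.5%), beside 20.0% of all genes tested higher in LCR and 22.7% higher in LCS. The mean level in LCS exceeded that in ConR for 890 of the 2424 genes, beside 28630 of the 56746 genes tested. The median gene of the 2424 reached 73.5% of its ConR level in LCS, beside 98.6% over the genes tested with reads in ConR. Of the 2948 genes, 1440 (48.8%) stood at or below 1 CPM in every ConS library, beside 36.7% of all genes tested. No read was found in any ConS library for 95 of the 2948, beside 2435 of the 56746 genes tested.

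Negative interactions lay mostly on shoot genes. Of the 403, 341 (84.6%) were higher in ConS than in ConR, 39 were called for neither and 23 were higher in ConR. The 341 shoot-preferring genes had a median in LCS of 26.1 CPM and in ConS of 40.5 CPM, against 3.86 CPM in LCR and 2.19 CPM in ConR. Their median log2 fold change was -0.81 in shoots and 0.90 in roots. The median difference between the tissues was 1.96 for LCS minus LCR and 3.86 for ConS minus ConR on the log2 scale. Shoot preference was still called between LCS and LCR for 250 of the 341 (73.3%), and 10 had turned to roots. The count of 341 became 829 or 214 with LCS S7 or S8 left out, and 217, 217 or 543 with ConS S13, S15 or S16 left out. It became 225, 190 or 178 with LCR S1, S2 or S4 left out, and 211 with ConR S9 left out.

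As a share of its class, a positive interaction was called for 0.714% of the genes that were higher in ConS, 1.58% of those called for neither tissue and 14.9% of those higher in ConR. A negative interaction was called for 2.54%, 0.144% and 0.141% of the same classes. The interaction and the comparison of ConS with ConR use the same control libraries, so these shares are a description and were not tested.

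**Figure D2:**
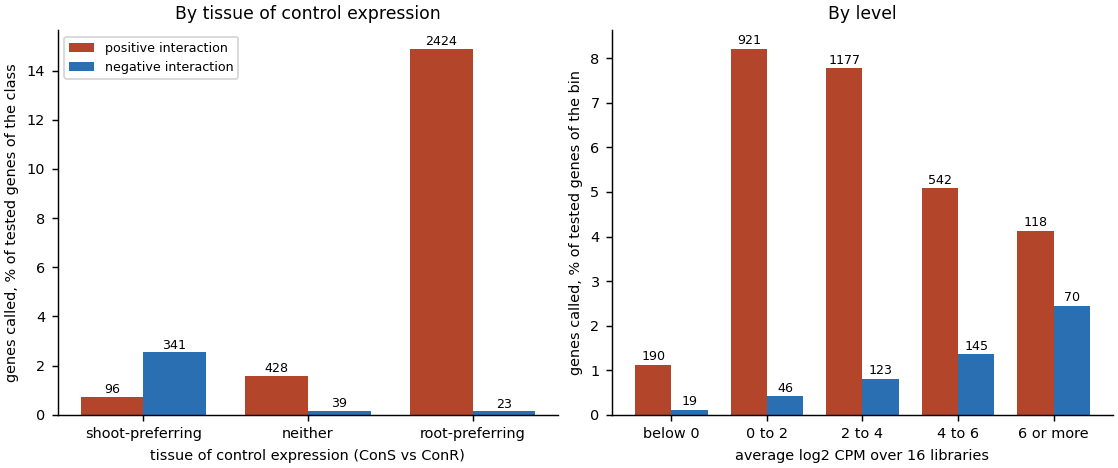
Bars give the genes called for a positive (red) or negative (blue) interaction as a percentage of the genes tested in a class, with the number of genes above each bar, by tissue of control expression (left) and by average log2 CPM (right). The tallest bar on the left is the 14.9% of root-preferring genes with a positive interaction, and on the right the share of positive calls falls above a log2 CPM of 2 while that of negative calls rises to 2.45%.

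Positive and negative interactions differed in level. Positive calls made up 8.22% of the genes tested with an average log2 CPM of 0 to 2, 7.78% at 2 to 4, 5.09% at 4 to 6 and 4.13% at 6 or more. Negative calls made up 0.411%, 0.813%, 1.36% and 2.45% of the same bins. Below a log2 CPM of 0, 1.12% of 16900 genes had a positive and 0.112% a negative call. The precision changed across these bins as well. The median standard error of the interaction was 1.47 below a log2 CPM of 0, 0.62 at 0 to 2 and 0.28 at 4 to 6, so that small differences in low genes were not detectable at this depth. The median positive interaction was 4.81 below 0 and 1.99 at 6 or more, and the median negative interaction -4.86 and -1.73.

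The LCS libraries were unequal in these genes. The median level of the 2424 root-preferring genes of positive interaction was 4.69 CPM in LCS S5, 5.22 CPM in S6, 2.91 CPM in S7 and 7.48 CPM in S8, against 0.503 to 0.680 CPM in the ConS libraries. It was 6.94 to 8.91 CPM in LCR and 5.39 to 8.59 CPM in ConR. All LCS libraries were above all ConS libraries, S8 lay within the range of the root libraries and S7 lay lowest. The 341 shoot-preferring genes of negative interaction had their lowest shoot median in LCS S8 as well, with 17.1 CPM, followed by 25.0 CPM in S5, 26.4 CPM in S6 and 31.1 CPM in S7, against 33.8 to 46.1 CPM in ConS. Their medians were 3.27 to 4.24 CPM in LCR and 1.99 to 2.26 CPM in ConR, again without overlap. Both sets were selected with these same libraries, so the separation of their group medians follows in part from the selection and is a description.

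**Figure D3:**
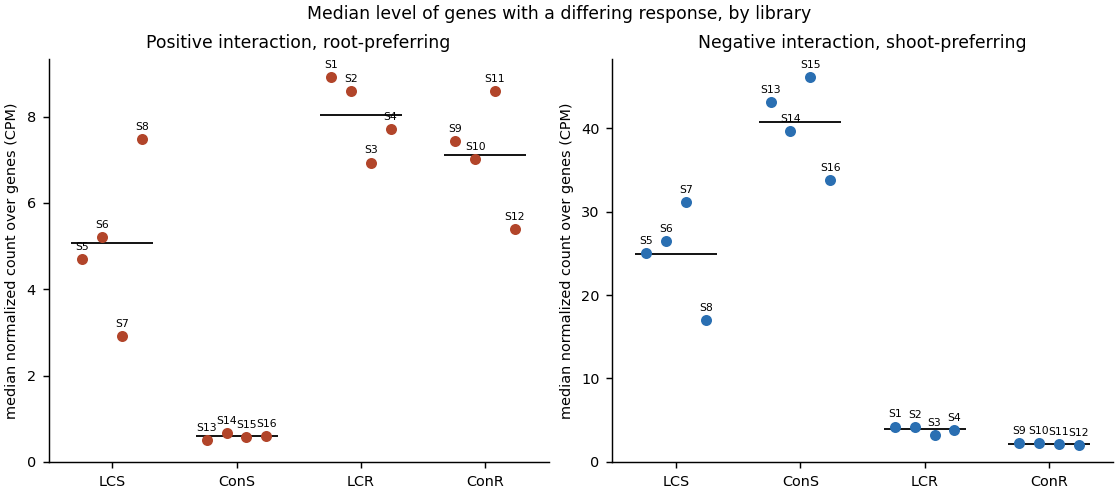
Points give the median normalized count (CPM, from 0) over 2424 genes of positive interaction with root preference (left) and 341 genes of negative interaction with shoot preference (right) in each library, and bars the mean of the 4 libraries. LCS S8 has the highest LCS value on the left (7.48 CPM) and the lowest on the right (17.1 CPM), and LCS S7 the reverse (2.91 CPM and 31.1 CPM).

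No annotated markers of root and shoot tissue were at hand for tef, so the tissue labels were checked with genes set from the control libraries. The 17 genes with at least 50 CPM in every ConR library and at most 1 CPM in every ConS library summed to 24.9, 21.1, 16.5 and 55.9 CPM in LCS S5 to S8 and to 9.35 to 9.95 CPM in ConS, against 1122 to 1374 CPM in LCR and 1344 to 1668 CPM in ConR. All 17 had reads in each LCS library, as in ConS S13, S14 and S16, and all but 1 had reads in ConS S15. Their sum in LCS was 1.13% to 3.82% of the ConR mean. Of the 17, 5 had a positive interaction and 12 none. The 187 genes set the other way summed to 10443 CPM in LCS S8 and 17662 to 22953 CPM in the other LCS libraries. They summed to 20290 to 31617 CPM in ConS, 114 to 145.0 CPM in LCR and 80.2 to 90.9 CPM in ConR. Every LCR sum lay above every ConR sum, and the median log2 fold change was -0.65 in shoots and 0.59 in roots. Of these 187, 23 had a negative interaction and none a positive one. Both sets were chosen on control libraries that also enter the interaction, so their counts, sums and fold changes are a description. Over all genes tested 5.20% had a positive and 0.710% a negative call. What part of the results came from tissue carried over between samples, or from a changed make-up of LCS S8 or LCR, was not tested.

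Without names for most identifiers, the members can be described by function only through the 109 genes that the study lists by identifier as calcium transporters, cyclic nucleotide-gated channels (CNGCs), glutamate receptor-like channels (GLRs), Fe/metal transporters and calcium signalling genes. Of these, 14 (12.8%) were called, 8 with a positive and 6 with a negative interaction, beside 5.91% of all genes tested. The study chose the lists on these samples, and the share is a description. The median interaction of the 109 genes was -0.18. Of the 14, 8 were called with each library left out in turn, and the number called was 8 without LCS S8. All 8 genes of positive interaction were higher in ConR than in ConS, beside 28.7% of all genes tested and 82.2% of the 2948 positive genes. All 6 of negative interaction were higher in ConS, beside 23.7% of all genes tested and 84.6% of the 403 negative genes. The control libraries also enter the interaction, so this sorting is a description.

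**Figure D4:**
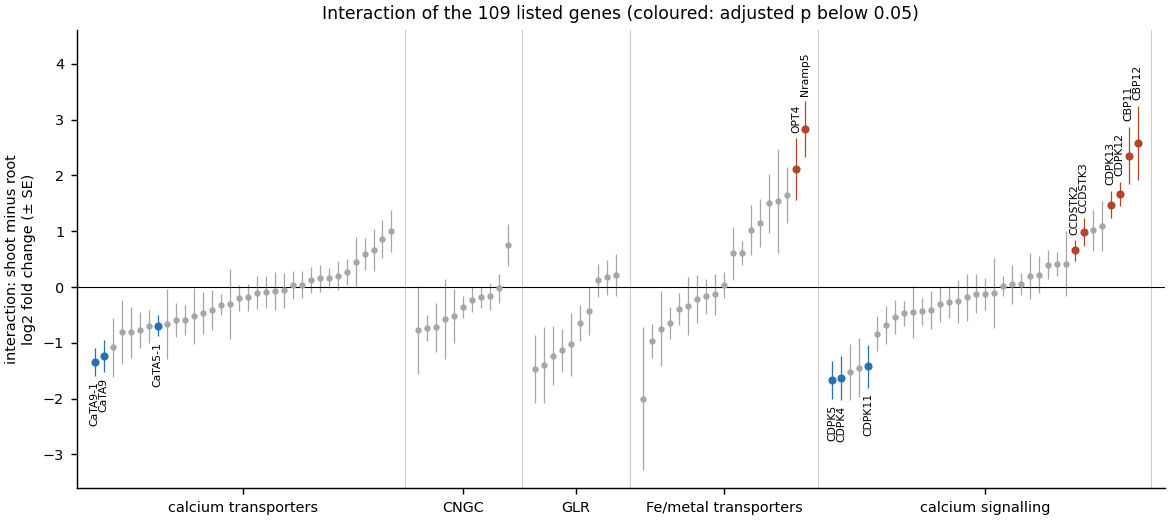
Points give the interaction of each of the 109 listed genes on the log2 scale, shoot minus root response, with its standard error, ordered by value within each list. The 14 genes that passed are coloured and named, from -1.66 for CDPK5 to 2.83 for Nramp5, and no CNGC or GLR passed.

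Among the 34 calcium transporters, 3 of 14 Ca2+-transporting ATPases had a negative interaction and none a positive one, beside 0.710% and 5.20% of all genes tested. These pumps use ATP to move Ca2+ out of the cytosol. CaTA9-1 (Et_6A_046490) had 15.1, 15.3, 18.4 and 9.59 CPM in LCS (libraries S5 to S8) and 66.3, 67.7, 55.1 and 50.2 CPM in ConS (S13 to S16). Root levels of CaTA9-1 were 11.03, 13.1, 13.02 and 11.4 CPM in LCR (S1 to S4) and 21.1, 21.7, 18.2 and 18.005 CPM in ConR (S9 to S12). It fell in both tissues with no overlap between low Ca2+ and control libraries, and fell further in shoots. For CaTA9-1 the log2 fold change was -2.04 (adjusted p = 7.81e-07) in shoots and -0.70 (adjusted p = 0.0409) in roots, an interaction of -1.34 (standard error 0.25, adjusted p = 0.00363). CaTA9 (Et_10A_001147) had 46.7, 27.01, 49.3 and 26.6 CPM in LCS (libraries S5 to S8) and 120.4, 102, 132 and 90.9 CPM in ConS (S13 to S16). Root levels of CaTA9 were 42.7, 51.9, 60.6 and 51.2 CPM in LCR (S1 to S4) and 64.3, 63.9, 65.6 and 66.6 CPM in ConR (S9 to S12). Its LCS libraries lay far below ConS, while the LCR libraries spread more widely than ConR and all lay below it. For CaTA9 the log2 fold change was -1.57 (adjusted p = 3.62e-05) in shoots and -0.33 (adjusted p = 0.360) in roots, an interaction of -1.24 (standard error 0.29, adjusted p = 0.0139). CaTA5-1 (Et_8A_057406) had 22.1, 18.8, 24.7 and 17.9 CPM in LCS (libraries S5 to S8) and 66.8, 62.2, 62.5 and 57.98 CPM in ConS (S13 to S16). Root levels of CaTA5-1 were 16.7, 17.96, 17.3 and 14.7 CPM in LCR (S1 to S4) and 29.7, 30.7, 34.2 and 28.6 CPM in ConR (S9 to S12). As in CaTA9-1, all low Ca2+ libraries lay below all control libraries in both tissues. For CaTA5-1 the log2 fold change was -1.58 (adjusted p = 7.67e-07) in shoots and -0.89 (adjusted p = 0.00289) in roots, an interaction of -0.69 (standard error 0.20, adjusted p = 0.0432). This interaction was near the threshold and its adjusted p ranged from 0.0165 to 0.0972 with 1 library left out, over 0.05 for 12 of the 16 omissions. CaTA9-1 and CaTA5-1 are the only 2 genes of the 403 that were called as lowered in both tissues. The other 11 ATPases were not called and ran from -1.08 for CaTA10 (Et_4B_039870, adjusted p = 0.279) to 1.01 for Et_7B_054771, 1 of the 2 genes listed as CaTA3 (adjusted p = 0.131). At an unadjusted p below 0.05 there were 6 of the 14 ATPases, beside 11018 of the 56746 genes tested. Limma-voom with library quality weights called 4 of the 14. In each of the 3 called pumps ConS was the highest of the 4 groups, and LCS vs LCR was not called.

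The other transporters of this list had no called interaction. For 7 calcium uniporters the interaction ran from -0.81 to 0.66. It ran from -0.81 to 0.44 for 6 cation/Ca2+ exchangers and from -0.59 to 0.27 for 3 mitochondrial exchangers, and the smallest adjusted p over these families was 0.201. At an unadjusted p below 0.05 there were 1 cation/Ca2+ exchanger, 1 mitochondrial exchanger and no uniporter, beside 11018 of the 56746 genes tested. Neither DESeq2 nor limma-voom called any gene of these 3 families. No call was made for the 11 CNGCs (interaction from -0.77 to 0.75, smallest adjusted p = 0.0703) or for the 10 GLRs (from -1.47 to 0.21, smallest adjusted p = 0.0970) by edgeR. Both are families of Ca2+-permeable channels. At an unadjusted p below 0.05 there were 1 CNGC and 3 GLRs, beside the same 11018 of the 56746 genes tested. DESeq2 called 1 CNGC and 1 GLR, limma-voom called neither family, and limma-voom with library quality weights called 1 GLR and no CNGC. The sign was negative for 10 of 11 CNGCs and 7 of 10 GLRs, beside 25775 of the 56746 genes tested. The medians were -0.36 and -0.84, beside 0.08 over all genes tested. None of these genes was called by edgeR and the study chose the lists on these samples, so signs and medians are a description.

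Among 19 Fe/metal transporters, 2 had a positive interaction and none a negative one, beside 5.20% and 0.710% of all genes tested, at a list median of 0.04. Nramp5 belongs to the NRAMP family of divalent metal carriers, and its namesake in rice takes up manganese in roots. Nramp5 (Et_5A_041086) had 5.94, 3.48, 1.25 and 4.70 CPM in LCS (libraries S5 to S8) and 1.76, 1.36, 1.55 and 0.532 CPM in ConS (S13 to S16). Root levels of Nramp5 were 79.6, 82.6, 115 and 107 CPM in LCR (S1 to S4) and 243, 255, 154 and 262 CPM in ConR (S9 to S12). Root libraries were far above shoot libraries, LCR lay below ConR without overlap, and in shoots only LCS S7 fell within the range of ConS. For Nramp5 the log2 fold change was 1.58 (adjusted p = 0.00711) in shoots and -1.25 (adjusted p = 0.0359) in roots, an interaction of 2.83 (standard error 0.50, adjusted p = 0.00236). Nramp5 is 1 of the 60 genes with opposite calls, and its interaction was called with each library left out, from 2.53 to 3.12. OPT4 belongs to the oligopeptide transporters, a family that moves small peptides and metal chelates. OPT4 (Et_1B_013097) had 32.2, 44.9, 24.2 and 59.5 CPM in LCS (libraries S5 to S8) and 3.43, 6.63, 1.55 and 4.33 CPM in ConS (S13 to S16). Root levels of OPT4 were 48.2, 57.6, 45.5 and 59.3 CPM in LCR (S1 to S4) and 20.7, 17.1, 42.8 and 10.5 CPM in ConR (S9 to S12). Every low Ca2+ library was above every control library in both tissues, and ConR S11 was close to the LCR range. For OPT4 the log2 fold change was 3.32 (adjusted p = 2.81e-05) in shoots and 1.21 (adjusted p = 0.0846) in roots, an interaction of 2.11 (standard error 0.55, adjusted p = 0.0290). In LCS it had come near the root level, with no call for LCS vs LCR (log2 difference -0.39). Leaving out LCR S1, LCR S3, LCS S8, ConR S11 or ConS S13 ended the call, with adjusted p-values from 0.0105 to 0.0689 over all omissions, and limma-voom did not call it (adjusted p = 0.0641).

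The other 17 metal transporters were not called by edgeR. The nearest was YSL16 (Et_3B_031448), of the yellow stripe-like carriers of metal chelates, with an interaction of 1.64 (adjusted p = 0.0627), just outside the threshold. The genes just inside it were CaTA5-1 and CCDSTK2 (both adjusted p = 0.0432). At an unadjusted p below 0.05 there were 9 of the 19 metal transporters, among them 4 of 7 yellow stripe-like genes, beside 11018 of the 56746 genes tested. DESeq2 called 4 of the 19, limma-voom 1 and limma-voom with library quality weights 3.

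Of the 35 signalling genes, 9 were called, beside 5.91% of all genes tested. The interaction was positive for 6 and negative for 3, beside 5.20% and 0.710% of all genes tested. The called genes include 5 of 14 CDPKs, which bind Ca2+ through their own EF-hands and then phosphorylate target proteins. The 5 fell into a root-preferring pair and 3 shoot-preferring genes, with interactions of opposite sign. CDPK12 (Et_4A_032792) had 12.8, 11.7, 11.6 and 9.78 CPM in LCS (libraries S5 to S8) and 8.71, 8.08, 8.98 and 6.08 CPM in ConS (S13 to S16). Root levels of CDPK12 were 30.8, 32.9, 34.6 and 26.8 CPM in LCR (S1 to S4) and 67.1, 61.8, 78.7 and 67.3 CPM in ConR (S9 to S12). All LCR libraries were at or below 34.6 CPM and all ConR libraries at or above 61.8 CPM, while LCS lay above ConS by a smaller step. For CDPK12 the log2 fold change was 0.53 (adjusted p = 0.0205) in shoots and -1.13 (adjusted p = 0.00125) in roots, an interaction of 1.66 (standard error 0.22, adjusted p = 2.74e-04). CDPK13 (Et_4B_036955) had 21.3, 11.6, 15.3 and 15.2 CPM in LCS (libraries S5 to S8) and 11.1, 10.6, 14.7 and 11.6 CPM in ConS (S13 to S16). Root levels of CDPK13 were 37.3, 34.8, 41.9 and 34.3 CPM in LCR (S1 to S4) and 79.4, 69.2, 87.4 and 75.8 CPM in ConR (S9 to S12). It had the same course in roots, and its shoot groups overlapped. For CDPK13 the log2 fold change was 0.40 (adjusted p = 0.101) in shoots and -1.07 (adjusted p = 0.00321) in roots, an interaction of 1.48 (standard error 0.24, adjusted p = 0.00152). CDPK12 and CDPK13 carry the labels 4A and 4B of the tef subgenomes in their identifiers, and both interactions were called with each library left out.

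The 3 shoot-preferring CDPKs moved the other way. CDPK5 (Et_7B_054972) had 11.4, 6.96, 13.1 and 8.24 CPM in LCS (libraries S5 to S8) and 25.4, 16.7, 28.7 and 15.3 CPM in ConS (S13 to S16). Root levels of CDPK5 were 6.08, 4.82, 4.99 and 4.33 CPM in LCR (S1 to S4) and 3.85, 3.66, 3.42 and 2.76 CPM in ConR (S9 to S12). Its shoot groups did not overlap, LCS being lower, and its root groups did not overlap either, LCR being higher. For CDPK5 the log2 fold change was -1.11 (adjusted p = 0.00196) in shoots and 0.55 (adjusted p = 0.211) in roots, an interaction of -1.66 (standard error 0.34, adjusted p = 0.00607). CDPK4 (Et_7A_052314) had 19.2, 13.6, 20.8 and 9.30 CPM in LCS (libraries S5 to S8) and 50.1, 37.9, 45.6 and 22.8 CPM in ConS (S13 to S16). Root levels of CDPK4 were 8.21, 6.66, 4.75 and 4.90 CPM in LCR (S1 to S4) and 5.11, 4.24, 6.18 and 3.90 CPM in ConR (S9 to S12). Here ConS S16 stood close to LCS S7, and the root groups overlapped. For CDPK4 the log2 fold change was -1.32 (adjusted p = 0.00180) in shoots and 0.32 (adjusted p = 0.551) in roots, an interaction of -1.64 (standard error 0.39, adjusted p = 0.0172). CDPK11 (Et_1A_008319) had 25.8, 40.8, 34.2 and 22.3 CPM in LCS (libraries S5 to S8) and 47.2, 35.96, 105 and 50.6 CPM in ConS (S13 to S16). Root levels of CDPK11 were 13.9, 14.1, 18.3 and 13.8 CPM in LCR (S1 to S4) and 11.9, 12.5, 8.77 and 10.6 CPM in ConR (S9 to S12). In ConS S15 the level was far above the other ConS libraries, and the shoot groups overlapped, whereas LCR lay above ConR without overlap. For CDPK11 the log2 fold change was -0.96 (adjusted p = 0.0147) in shoots and 0.46 (adjusted p = 0.354) in roots, an interaction of -1.42 (standard error 0.39, adjusted p = 0.0354). Its interaction was not called without any 1 of 10 libraries, with adjusted p-values from 0.0149 to 0.0797 over the 16 omissions, while those of CDPK4 and CDPK5 were called each time. It was not called in limma-voom either, with library quality weights (-1.04, adjusted p = 0.0744) or without (adjusted p = 0.0585). In all 3 genes the fall in shoots passed the test and the root response did not.

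Calcium/calmodulin-dependent serine/threonine kinases (CCDSTKs) respond to Ca2+ bound to calmodulin. Of the 3 listed, 2 had a positive interaction, beside 5.20% of all genes tested. CCDSTK3 (Et_5B_044444) had 20.1, 13.8, 14.6 and 21.8 CPM in LCS (libraries S5 to S8) and 13.9, 10.9, 11.01 and 12.4 CPM in ConS (S13 to S16). Root levels of CCDSTK3 were 32.96, 22.8, 30.1 and 33.1 CPM in LCR (S1 to S4) and 43.8, 40.7, 41.7 and 35.2 CPM in ConR (S9 to S12). LCS S5, S7 and S8 were above all ConS libraries and LCS S6 was not, while LCR lay below ConR. For CCDSTK3 the log2 fold change was 0.55 (adjusted p = 0.0297) in shoots and -0.44 (adjusted p = 0.153) in roots, an interaction of 0.99 (standard error 0.25, adjusted p = 0.0214). CCDSTK2 (Et_5A_041770) had 16.9, 16.2, 14.3 and 17.3 CPM in LCS (libraries S5 to S8) and 11.6, 12.2, 11.9 and 11.2 CPM in ConS (S13 to S16). Root levels of CCDSTK2 were 24.2, 24.5, 24.01 and 22.98 CPM in LCR (S1 to S4) and 27.6, 27.9, 30.7 and 22.8 CPM in ConR (S9 to S12). Its shoot groups were separate by a small step and its root groups overlapped. For CCDSTK2 the log2 fold change was 0.47 (adjusted p = 0.0153) in shoots and -0.19 (adjusted p = 0.427) in roots, an interaction of 0.65 (standard error 0.19, adjusted p = 0.0432). The interaction of CCDSTK2 was lost without any 1 of 14 libraries (adjusted p 0.0245 to 0.0916 over the 16 omissions), and that of CCDSTK3 without ConS S14, LCS S5 or LCS S8 (0.0115 to 0.0547). Both were small beside the median positive interaction of 2.92.

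Of 17 listed calcium-binding proteins (CBPs), 2 had a positive interaction, beside 5.20% of all genes tested, and in both it came with a fall in roots. CBP11 (Et_3A_023424) had 1.72, 1.28, 1.35 and 1.53 CPM in LCS (libraries S5 to S8) and 1.34, 1.53, 1.06 and 0.532 CPM in ConS (S13 to S16). Root levels of CBP11 were 98.7, 58.3, 87.4 and 84.2 CPM in LCR (S1 to S4) and 239.7, 491, 151 and 383 CPM in ConR (S9 to S12). CBP12 (Et_3B_027891) had 0.575, 0.580, 0.415 and 0.671 CPM in LCS (libraries S5 to S8) and 0.503, 0.425, 0.386 and 0.0760 CPM in ConS (S13 to S16). Root levels of CBP12 were 34.1, 22.96, 29.5 and 23.3 CPM in LCR (S1 to S4) and 78.4, 166, 48.3 and 110.1 CPM in ConR (S9 to S12). For both genes every LCR library was below every ConR library, the ConR libraries spread widely with S10 highest and S11 lowest, and the shoot groups overlapped at low levels. For CBP11 the log2 fold change was 0.41 (adjusted p = 0.504) in shoots and -1.95 (adjusted p = 0.00267) in roots, an interaction of 2.36 (standard error 0.51, adjusted p = 0.00920). For CBP12 the log2 fold change was 0.70 (adjusted p = 0.411) in shoots and -1.88 (adjusted p = 0.00289) in roots, an interaction of 2.58 (standard error 0.66, adjusted p = 0.0260). The shoot values rest on few reads, 11 to 18 in an LCS library and 7 to 18 in a ConS library for CBP11 and 4 to 7 in an LCS library and 1 to 6 in a ConS library for CBP12. In limma-voom neither interaction passed (adjusted p = 0.0904 for CBP11 and 0.129 for CBP12). Among the 16 omissions CBP12 was not called without LCS S5 or LCS S8, and CBP11 was called each time.

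**Figure D5:**
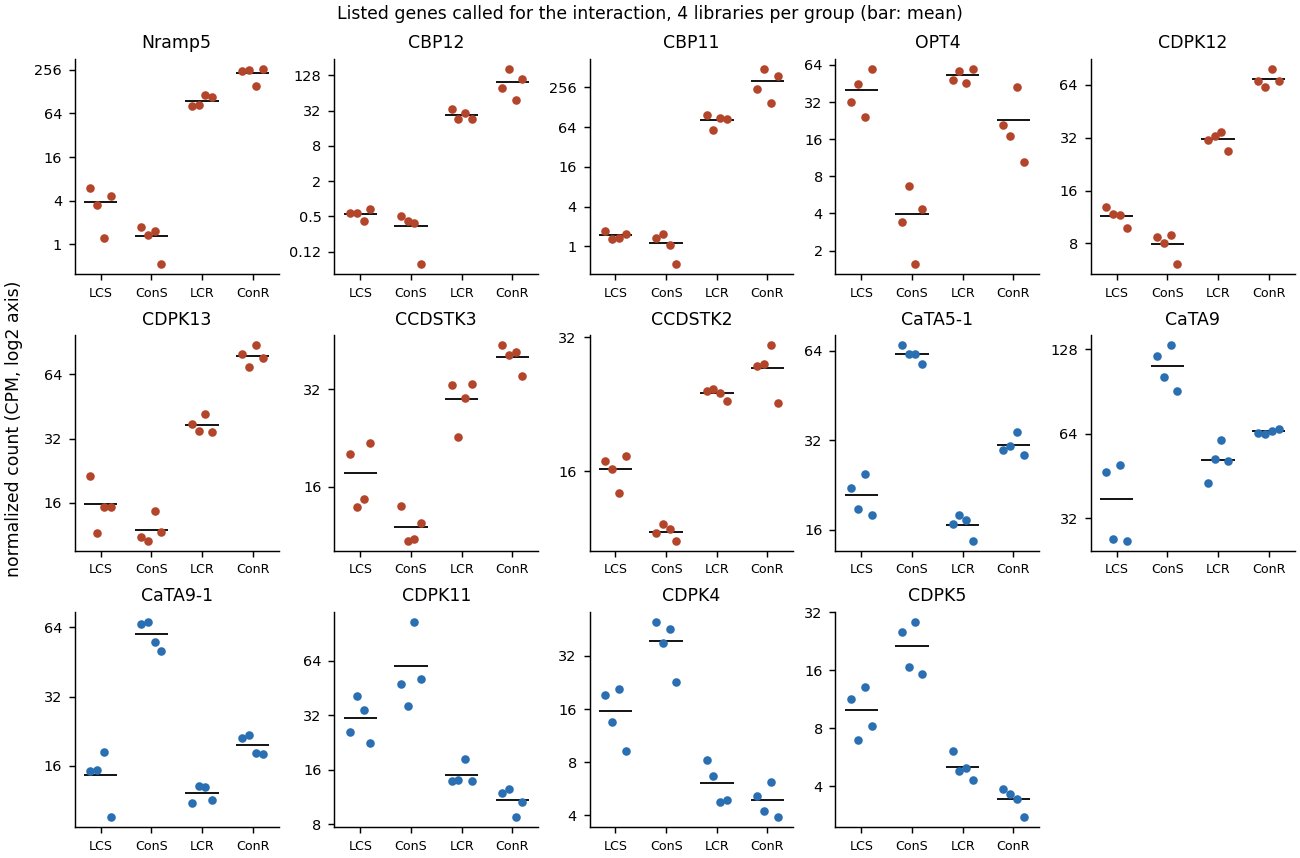
Points give the normalized count (CPM, log2 axis) of each of the 14 listed genes called for the interaction in each of the 4 libraries of LCS, ConS, LCR and ConR, and bars the group means. The 8 genes of positive interaction (red) are higher in ConR than in ConS, and in the 6 of negative interaction (blue) ConS is the highest group.

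The genes chosen by the size of their interaction have identifiers that the files do not pair with names. Among called genes whose log2 CPM averaged 1 or more and whose libraries did not overlap in the tissue of the larger response, the 2 largest positive and the 2 largest negative are given. Et_6A_047665 had 40.9, 28.4, 7.99 and 54.2 CPM in LCS (libraries S5 to S8) and 0, 0, 0.193 and 0 CPM in ConS (S13 to S16). Root levels of Et_6A_047665 were 0 CPM in each LCR library and 0, 0.0488, 0.0600 and 0.0709 CPM in ConR (S9 to S12). It was detected in all LCS libraries and in no LCR library, and its other groups held at most 2 reads in a library. In shoots its fitted log2 fold change came to 9.28 (standard error 0.77 and adjusted p = 1.50e-06). No fold is given for roots, where both groups were at or under the floor of 3 reads, and the fitted interaction of 11.71 (adjusted p = 0.0304) depends on the prior count of the fit. It was not called without ConR S10, S11 or S12, with adjusted p-values from 0.00199 to 0.0922 over the 16 omissions, or in thinned libraries (adjusted p = 0.250), and its value was 14.08 without ConS S15. Summed over the libraries it had 1314 reads in LCS and 2 in ConS, a ratio of CPM of 793 (95% exact interval 219 to 6553, covering counting error only). Et_3B_031518 had 88.99, 28.9, 3.11 and 245 CPM in LCS (libraries S5 to S8) and 0.0838, 0.0850, 0.290 and 0.152 CPM in ConS (S13 to S16). Root levels of Et_3B_031518 were 0, 0, 0.234 and 0 CPM in LCR (S1 to S4) and 0.266, 0.146, 0.180 and 0.638 CPM in ConR (S9 to S12). Its level was above 1 CPM in LCS alone, with a wide spread from S7 to S8. In shoots the fitted log2 fold change came to 9.17 (standard error 1.14 and adjusted p = 2.03e-05), the root value -1.89 (adjusted p = 0.625) and the fitted interaction 11.06 (standard error 2.35, adjusted p = 0.00823). Summed over the libraries it had 3 reads in LCR and 19 in ConR, a ratio of CPM of 0.250 (95% exact interval 0.0473 to 0.848, covering counting error only). The interaction was 14.04 without LCR S3 and 9.89 without LCS S8, and was not called in limma-voom (adjusted p = 0.120) or in libraries thinned to the smallest total (adjusted p = 0.183).

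At the negative end, both genes rose in roots with no call in shoots. Et_7A_050889 had 4.02, 3.36, 4.98 and 4.41 CPM in LCS (libraries S5 to S8) and 3.85, 4.51, 6.47 and 3.27 CPM in ConS (S13 to S16). Root levels of Et_7A_050889 were 0.566, 0.351, 0.156 and 0.471 CPM in LCR (S1 to S4) and 0, 0, 0.0600 and 0 CPM in ConR (S9 to S12). The shoot groups overlapped, and the root level was low in both groups but above ConR in every LCR library. For Et_7A_050889 the log2 fold change was -0.10 (adjusted p = 0.855) in shoots and 3.89 (adjusted p = 0.00962) in roots, an interaction of -3.99 (standard error 0.81, adjusted p = 0.00603). Summed over the libraries it had 15 reads in LCR and 1 in ConR, a ratio of CPM of 23.7 (95% exact interval 3.65 to 999, covering counting error only). With 1 read in ConR the fitted root and interaction values depend on the prior count of the fit. The interaction was -5.26 without ConR S11, and it was not called in thinned libraries (-3.07, adjusted p = 0.0660). Et_4A_034823 had 0.671, 2.55, 1.14 and 0.479 CPM in LCS (libraries S5 to S8) and 1.59, 2.04, 6.76 and 0.760 CPM in ConS (S13 to S16). Root levels of Et_4A_034823 were 14.996, 15.3, 8.18 and 18.6 CPM in LCR (S1 to S4) and 1.59, 1.85, 7.15 and 1.13 CPM in ConR (S9 to S12). LCR lay above ConR in roots, although ConR S11 came close to LCR S3, and ConS S15 was far above the other shoot libraries. ConS S15 and ConR S11 were the highest of their groups. For Et_4A_034823 the log2 fold change was -1.21 (adjusted p = 0.220) in shoots and 2.27 (adjusted p = 0.0459) in roots, an interaction of -3.48 (standard error 0.91, adjusted p = 0.0291). This interaction was not called without any 1 of 7 libraries (adjusted p 0.00371 to 0.0788 over the 16 omissions), and its value was -2.60 without ConS S15, -4.41 without ConR S11 and -4.11 without LCS S6.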

How the data were processed

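Root and shoot mRNA of tef was sequenced as paired-end reads, and the authors trimmed these, used HISAT2 for alignment against a draft assembly and HTSeq for counting. The authors deposited raw counts of uniquely mapped reads per gene in 1 table, so that reads shared by near-identical gene copies of the A and B subgenomes, which those counts leave out, could lower both copies. From these counts, genes with a read in at least 4 of 16 libraries were tested with edgeR 4.0.16 (R 4.3.3, TMM scaling, 1 term per group, quasi-likelihood test), and p-values were adjusted by Benjamini-Hochberg over all 56746 genes. Adjusted p-values in the text are from this fit unless another tool is named. The standard error is the log2 value divided by the square root of its F statistic. Totals per library ran from 6276818 to 17659238 reads. No libraries agreed within sampling noise. The fit was tested on simulated data. Alternatives were DESeq2 1.42.0 and its size factors, limma-voom 3.58.1 with and without library weights, other scalings, filters and thresholds, libraries thinned to the smallest total, and each library left out. The counts by pattern and control tissue were repeated without each library after seeing the data.

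Genes named are the 14 called genes of the 109 that the study lists by identifier, and the 2 largest interactions of each sign whose log2 CPM averaged 1 or more, without overlap in the tissue of the larger response. The members and lists were chosen with earlier results of these data known. No sequences or annotation were used here.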

Additional observations from a re-analysis of the deposited data

Results flagged for a closer look

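In a group of 4 libraries, 1 library stood apart from the others in 5 of the 72 groups checked over the 18 named genes, where chance gives about 1 in 20. CDPK11 (Et_1A_008319) had 18.3 CPM in LCR S3, above the other LCR libraries. Et_4A_034823 had 7.15 CPM in ConR S11, above the other ConR libraries. The remaining 3 rest on 1 to 3 reads: 0.193 CPM of Et_6A_047665 in ConS S15, 0.234 CPM of Et_3B_031518 in LCR S3 and 0.0600 CPM of Et_7A_050889 in ConR S11.

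The 18 named genes were chosen because the test of the difference between shoot and root response called them, so their values are a description. With 1 library left out, the call was lost in 14 omissions for CCDSTK2, 12 for CaTA5-1, 10 for CDPK11, 7 for Et_4A_034823, 5 for OPT4, 3 for CCDSTK3, 3 for Et_6A_047665 and 2 for CBP12, and in none for the other 10 genes. On the log2 scale, shoots minus roots, the positive values were 2.83 for Nramp5 (Et_5A_041086), 2.58 for CBP12 (Et_3B_027891), 2.36 for CBP11 (Et_3A_023424), 2.11 for OPT4 (Et_1B_013097), 1.66 for CDPK12 (Et_4A_032792), 1.48 for CDPK13 (Et_4B_036955), 0.99 for CCDSTK3 (Et_5B_044444) and 0.65 for CCDSTK2 (Et_5A_041770). The negative values were -0.69 for CaTA5-1 (Et_8A_057406), -1.24 for CaTA9 (Et_10A_001147), -1.34 for CaTA9-1 (Et_6A_046490), -1.42 for CDPK11, -1.64 for CDPK4 (Et_7A_052314) and -1.66 for CDPK5 (Et_7B_054972). The genes without a name had 11.71 (Et_6A_047665), 11.06 (Et_3B_031518), -3.99 (Et_7A_050889) and -3.48 (Et_4A_034823).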

How the results depend on the processing

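The 3351 interactions, 88.0% of them positive, were 5155 with DESeq2, 1936 in libraries thinned to the smallest total, 1370 at an adjusted p below 0.01 and 5331 below 0.1. The 2948 positive ones were 1699 when thinned and 1286 at 0.01, and the 403 negative ones were 1142 with DESeq2, 943 with limma-voom and library quality weights, 237 when thinned, 84 at 0.01 and 955 at 0.1. The share of positive calls was 77.8% with DESeq2 and 78.4% with quality weights. The 14 listed genes were 9 when thinned, 9 with limma-voom and 6 at 0.01. With 1 library left out, the counts ranged from 2417 to 5127 for all interactions, 2167 to 4204 for positive, 203 to 923 for negative and 8 to 16 for listed genes. The ranges were 1876 to 3758 for genes raised in shoots only, 1764 to 3479 for root-preferring positive and 178 to 829 for shoot-preferring negative genes, and 20 to 110 and 3 to 29 for the opposite patterns. The cause of these changes was not tested. Of 503 values of named genes under an alternative, 89 lost the call and none changed sign. CCDSTK2, CaTA5-1 and CDPK11 lost it most often. No paired analysis was possible because the groups share no replicate number in the labels. Low genes have the widest standard errors, so interactions below a log2 CPM of 0 are the least certain.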

Other observations

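Both subgenomes contributed alike in number. The identifiers of the positive genes carry the letter A in 50.3% and B in 49.6%, those of the negative genes 48.9% and 50.1%, beside 49.7% and 48.5% of all genes tested. These shares are a description and were not tested.

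Of the listed genes, 5 lay just outside the threshold in edgeR's quasi-likelihood test, with an adjusted p between 0.05 and 0.1. Their interactions were 1.64 for YSL16 (adjusted p = 0.0627), -0.74 for CNGC1 (adjusted p = 0.0703), -0.97 for YSL13 (adjusted p = 0.0749), -1.53 for CBP8 (adjusted p = 0.0822) and -1.13 for GLR3.4-2 (adjusted p = 0.0970). YSL16 was higher in ConR than in ConS, and the other 4 were higher in ConS.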
